A study of Homo sapiens with 12 samples.

Results

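The cultures described here are the doxycycline control of an inducible knockdown experiment: Z-138 and Maver-1, human lines of mantle cell lymphoma, each carrying a non-targeting hairpin (NTC). The Z-138 NTC culture and the Maver-1 NTC culture were each grown for 7 days with 0 or with 100 ng/ml doxycycline. Each culture and dose gave 1 Affymetrix array, so the members, chosen by their labels, are 4 of the 12 arrays of the series. The other 8 arrays come from the same lines with either of 2 hairpins against MAP3K14, named NIKsh#1 and NIKsh#2, at the same doses and duration. They were used to estimate the spread and to show where the NTC cultures differ. All cultures, untreated ones included, were kept in puromycin, which selects for the construct. Per the labels, TRAF3 is deleted in Maver-1 and TRAF2 has a nonsense mutation in Z-138. Whether a culture was a clone or a pool, and whether cultures were grown at separate times, is not given in the sources used here, so every p-value below measures the spread between these cultures only.

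In inducible constructs of this type doxycycline switches on a promoter, and the cell then makes a short hairpin RNA that the RNA interference machinery exports, cuts and loads onto an Argonaute protein. A non-targeting hairpin passes through the same steps without a matching human transcript. Doxycycline also binds the ribosome of mitochondria, and a block of mitochondrial translation is known to raise genes of the ATF4 stress response. MAP3K14 encodes NIK, the kinase of the alternative NF-kB pathway, which TRAF2 and TRAF3 normally keep low, and this pathway supports the survival of B cells.

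Signals were compared on the log2(signal + 3) scale, on which changes of weak genes are understated. A change is the array at 100 ng/ml minus the array at 0 ng/ml of the same culture. Over the 11548 genes kept, the change had an SD of 0.541 in the Z-138 NTC culture and of 0.264 in the Maver-1 NTC culture. In Z-138 NTC 807 genes (6.99% of those kept) were at least 2-fold apart, 412 higher and 395 lower with doxycycline. In Maver-1 NTC 75 genes (0.649%) were at least 2-fold apart, 43 higher and 32 lower. The change was thus wide in one line and narrow in the other, and each of these counts rests on 1 pair of arrays with no replicate check. For ACTB, the signal ratio of 3' over 5' probe sets, which is raised by degraded or incompletely copied RNA, went from 2.33 to 6.34 in Z-138 NTC and from 6.88 to 4.43 in Maver-1 NTC. That of GAPDH went from 1.17 to 2.00 and from 2.39 to 1.68. Both ratios moved in opposite directions in the NTC cultures, and beyond the fits with these ratios as covariates given below, their part in the results was not tested. The B cell genes MS4A1, CD79A, CD79B and PAX5 and the mantle cell lymphoma genes CCND1 and SOX11 gave signals of at least 308.8 on all 12 arrays, and the B cell gene CD22 lay between 29.4 and 97.6.

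**Figure D1:**
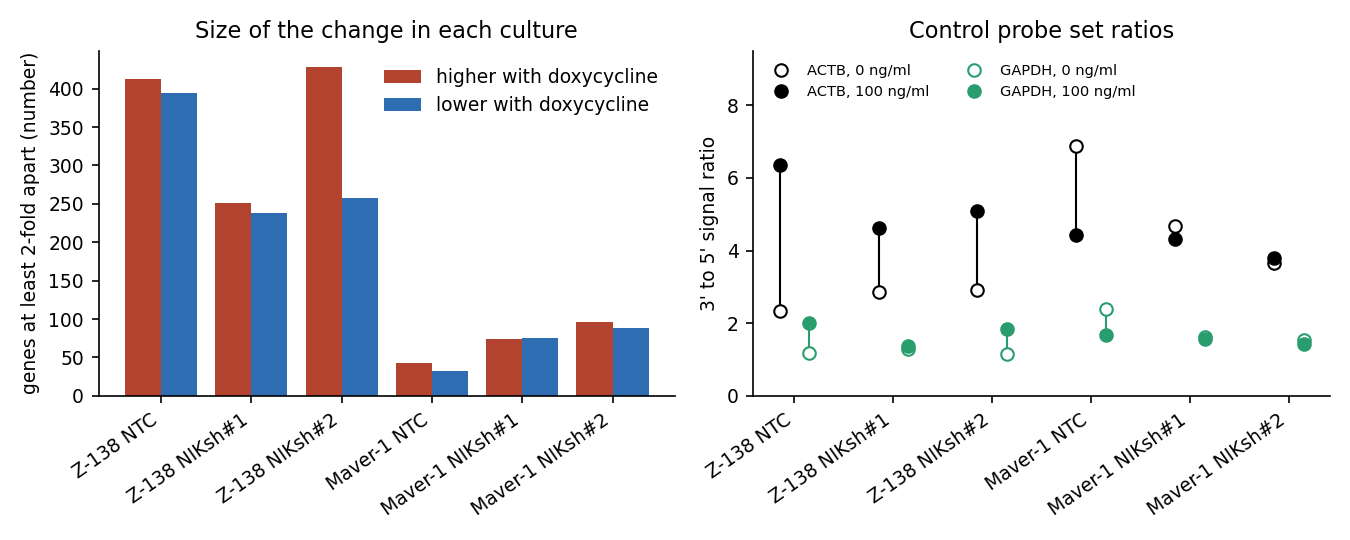
Left, the number of genes at least 2-fold higher or lower with 100 than with 0 ng/ml doxycycline in each culture; right, the ratio of 3' over 5' signal for ACTB and for GAPDH on each array (open, 0 ng/ml; filled, 100 ng/ml). Z-138 NTC has 807 such genes and an ACTB ratio that goes from 2.33 to 6.34, and Maver-1 NTC has 75 such genes and an ACTB ratio that goes from 6.88 to 4.43.

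The first comparison asked which genes changed with doxycycline in both NTC cultures. In the limma fit over all 12 arrays, with culture as a block, 0 of 11548 genes passed at an adjusted p of 0.05 (0% called), and 387 had an unadjusted p under 0.05, 172 higher and 215 lower. Data of this layout were also simulated, with the same spread in every culture. There the same fit recovered 64% of genes changed 2-fold and 99% of genes changed 4-fold. The measured spread was unequal, with an SD of 0.541 for the Z-138 NTC change against 0.264 for its Maver-1 counterpart. Across genes these changes correlated at -0.151. The recovery rates therefore need not hold for the measured arrays, and the 0 calls do not show that no change was shared. By size alone, 84 genes (0.727%) were at least 1.5-fold apart in the same direction in both NTC cultures, 37 higher and 47 lower with doxycycline. A larger number, 135 genes (1.17%), were at least 1.5-fold apart in opposite directions. The 84 genes were weakly expressed, with a median NTC signal of 23.3 against 277 over all genes kept. Of the 84 genes, 4 were at least 2-fold apart in both NTC cultures and 11 had the same sign in all 6 cultures of the series. Of all 11548 genes, 466 had the same sign in all 6. The 84 genes were chosen by agreement in the NTC cultures, which favours such a count.

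Among the genes higher in both NTC cultures, ACTA2 (chromosome 10), smooth muscle actin, had the highest mean change, 1.68 (SD 1.32, n = 2 cultures). The signal of ACTA2 went from 34.2 to 224.0 in Z-138 NTC and from 7.4 to 14.4 in Maver-1 NTC. On the NIKsh arrays it lay between 37.6 and 78.2 in Z-138 and between 6.4 and 10.2 in Maver-1, so each treated NTC array was the highest of its line. ACTA2 is read by 3 probe sets, and in Z-138 NTC only 1 of them was at least 1.5-fold higher, with a range from -0.20 to 2.61.

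RAG2 (chromosome 11), a subunit of the recombinase that assembles antibody genes, went from 5.0 to 27.3 in Z-138 NTC and from 62.0 to 99.3 in Maver-1 NTC, a mean change of 1.29 (SD 0.90, n = 2). RAG2 was higher with doxycycline in both Z-138 NIKsh cultures too, by 0.86 and 0.91, while its changes in the Maver-1 NIKsh cultures were -0.17 and 0.43. CDK6 (chromosome 7), a kinase that pairs with D-type cyclins to start the cell cycle, went from 236.7 to 741.5 in Z-138 NTC and from 49.4 to 87.3 in Maver-1 NTC. In the NIKsh cultures of Z-138 the CDK6 signal went the other way, from 157.2 to 31.6 and from 123.0 to 66.8. The treated Z-138 NTC array was thus the highest for CDK6 and the treated NIKsh arrays the lowest of that line. Of the 7 probe sets of CDK6, 5 were at least 1.5-fold higher in Z-138 NTC, and 3 were in the Maver-1 culture. JDP2 (chromosome 14), a repressor of the AP-1 family, went from 8.6 to 31.6 and from 19.2 to 36.4, and its 2 probe sets lay at -1.01 and 1.58 in Z-138 NTC. The other genes among the 12 highest were ACTL8, HID1, YJEFN3, RIBC2, PRR36, LINC02728, TBC1D27P and CNTNAP1, most of them weakly expressed in at least 1 line. HID1 (chromosome 17), a Golgi protein of secretory cells, went from 10.6 to 34.8 and from 2.1 to 8.2, and it was also higher with doxycycline in both Maver-1 NIKsh cultures.

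Of the genes lower in both NTC cultures, APOBEC3B (chromosome 22), a cytosine deaminase that mutates single-stranded DNA, was well expressed. It went from 535.8 to 196.4 in Z-138 NTC and from 608.2 to 403.6 in Maver-1 NTC, a mean change of -1.01 (SD 0.60, n = 2). APOBEC3B was lower with doxycycline in both Z-138 NIKsh cultures as well, from 470.1 to 313.6 and from 431.1 to 221.0, and passed the limma test over the 3 Z-138 cultures described further on. In the Maver-1 NIKsh cultures it went from 625.4 to 631.8 and from 475.0 to 330.6, so that 5 of 6 cultures were lower. VMP1 (chromosome 17), a membrane protein needed for autophagy, went from 165.6 to 55.5 in Z-138 NTC and from 59.7 to 36.2 in Maver-1 NTC. TBC1D4 (chromosome 13), which controls the traffic of glucose transporters, had a change of -1.07 from a signal of 20.7 in Z-138 NTC and of -1.35 from 32.6 in Maver-1 NTC, with its 2 probe sets at -1.07 and 0.79 in Z-138 NTC. Several of these genes moved the other way with the NIKsh hairpins in Z-138. TBC1D4 was higher by 1.40 and 2.08 there, the calcium channel gene CACNA1A (chromosome 19) by 1.84 and 2.00, the endoplasmic reticulum protein gene REEP1 (chromosome 2) by 0.81 and 0.80, and the ankyrin gene ANK2 (chromosome 4) by 0.78 and 0.84. CACNA1A went from 48.2 to 16.2 in Z-138 NTC and from 93.2 to 55.7 in Maver-1 NTC, but its mean change became 0.12 when its probe sets were averaged. The remaining genes of the 12 lowest were SORBS2, ADD3-AS1, ITGB2, TRIM31, HMMR-AS1 and RAX2. All 24 of the highest and lowest genes had an adjusted p of 0.895 in limma.

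LDLRAD3 and GAREM1 were singled out after their values were seen, because they showed opposite layouts. LDLRAD3 (chromosome 11), a membrane receptor of the low-density lipoprotein receptor family, went from 265.0 to 163.3 in Z-138 NTC and from 23.4 to 13.3 in Maver-1 NTC. It was higher with doxycycline in each of the 4 NIKsh cultures, by 0.70 to 0.91. GAREM1 (chromosome 18), an adaptor of growth factor signalling, went from 12.4 to 27.1 and from 35.9 to 57.2 in the NTC cultures, and was higher in all 6 cultures.

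**Figure D2:**
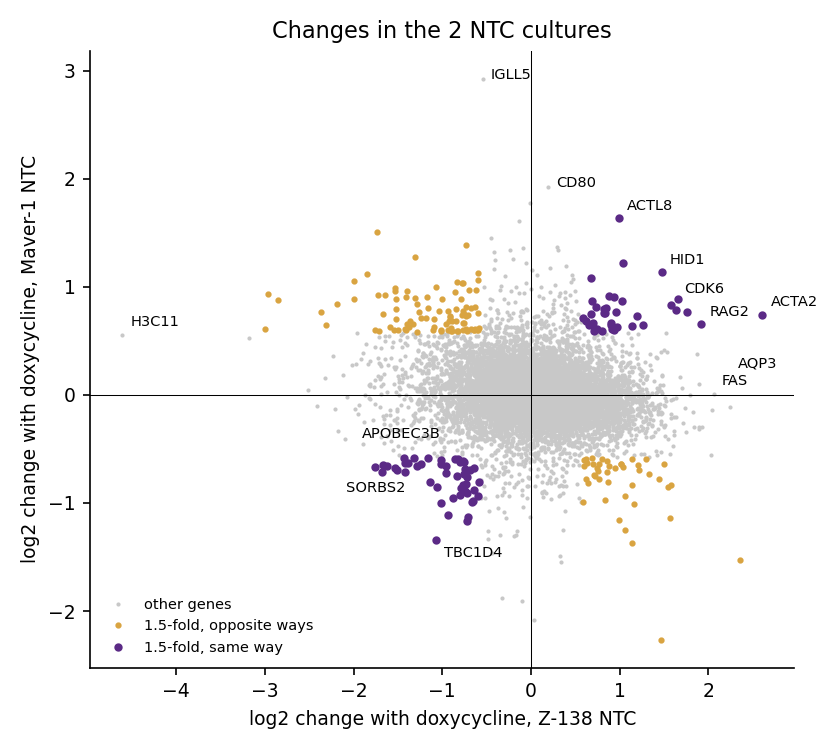
Each point is 1 of the 11548 genes, with its log2 change with doxycycline in Z-138 NTC on the x axis and that in Maver-1 NTC on the y axis. The 84 genes at least 1.5-fold apart in the same direction (purple) are fewer than the 135 in opposite directions (ochre), and the cloud is wider along the Z-138 axis, with an SD of 0.541 against 0.264.

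The large changes of Z-138 NTC were then described culture by culture, with no test, since this is 1 pair of arrays. Of the 412 genes at least 2-fold higher, 384 had a treated signal above all 3 untreated Z-138 arrays and 273 above all 5 other arrays of the line. For 294 of them the untreated NTC array was also below all 5 other Z-138 arrays. Of the 395 genes at least 2-fold lower, 381 had a treated signal below all 3 untreated arrays and 328 below all 5 other arrays, and for 193 the untreated NTC array was above all 5 other arrays. The genes were chosen by the distance between these same arrays, which favours such positions. The genes with the highest changes after ACTA2 were PRMT5-AS1, AQP3, TNK2, FAS, VAV2, PHLDA3, WNT5B, RAG2 and UCKL1. TNK2 (chromosome 3), a cytoplasmic tyrosine kinase, went from 57.2 to 281.7. WNT5B (chromosome 12), a secreted Wnt ligand, went from 96.0 to 373.4 in Z-138 NTC and from 197.3 to 22.2 and 136.2 to 70.1 in the NIKsh cultures. Neither TNK2 nor WNT5B was at least 1.5-fold apart in Maver-1 NTC.

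Targets of p53, the transcription factor that answers DNA damage and other stress, made up 3 of the highest 10 genes of Z-138 NTC: ACTA2, FAS and PHLDA3. Of 42 listed targets 31 were measured, and 12 were at least 1.5-fold higher and 2 lower (BAK1 and AEN), against 13.9% and 10.7% of all genes. The median change of the list was 0.32, and 0.07 over all genes. With NIKsh#1 and NIKsh#2 in Z-138 the list's medians were 0.13 and 0.08. In Maver-1 NTC the median was 0.01 and ACTA2 was the 1 member at least 1.5-fold higher, with none lower, where 2.54% of all genes were that much higher and 1.96% lower. No member passed the limma test over both NTC cultures.

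FAS (chromosome 10), the death receptor, went from 92.6 to 395.8 in Z-138 NTC and from 27.1 to 27.3 in Maver-1 NTC. In the Z-138 NIKsh cultures it went from 83.5 to 37.9 and from 83.9 to 48.8, so the untreated arrays lay close together and the treated arrays far apart. All 5 FAS probe sets were at least 1.5-fold higher in Z-138 NTC, between 1.22 and 2.06. PHLDA3 (chromosome 1), an inhibitor of AKT, went from 22.5 to 100.9 in Z-138 NTC, on both of its probe sets, and its NIKsh arrays in that line lay between 27.7 and 49.3. SESN1 (chromosome 6), a sestrin that restrains mTORC1, went from 178.9 to 540.4 in Z-138 NTC, while its NIKsh arrays in that line lay between 237.6 and 288.3. For these genes the treated Z-138 NTC array was the highest of all 12. GADD45A (chromosome 1), which arrests damaged cells, behaved differently: it went from 49.5 to 113.4 in Z-138 NTC and from 43.8 to 104.6 and 55.7 to 98.4 in the NIKsh cultures. GADD45A rose in the limma test over the 3 Z-138 cultures, by 1.05 ± 0.15 (SE, adjusted p = 0.0413). The next targets, named after their values were seen, were TIGAR, which lowers glycolytic flux (410.2 to 914.1), the cell cycle inhibitor CDKN1A (903.6 to 1579.4), the RNA-binding protein gene ZMAT3 (545.1 to 958.3) and the DNA repair gene XPC (103.0 to 178.5). Signals of MDM2, the negative regulator of p53, were 2879.7 and 3366.2, a change of 0.23.

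The annotated spans of FAS and ACTA2 overlap on opposite strands of chromosome 10, FAS at chr10:88964050-89017059 and ACTA2 at chr10:88935074-88991337 (RefSeq, GRCh38.p14). Their promoter windows, the 250 bases before a transcript start, overlap by 93 bases for one of the starts of each gene. These windows and one of SESN1 are shown 5′ to 3′ because the 3 genes were among the highest of the list and are the ones whose windows hold a match to the p53 consensus decamer, which is in capitals.
FAS, chr10:88991181-88991430, plus strand: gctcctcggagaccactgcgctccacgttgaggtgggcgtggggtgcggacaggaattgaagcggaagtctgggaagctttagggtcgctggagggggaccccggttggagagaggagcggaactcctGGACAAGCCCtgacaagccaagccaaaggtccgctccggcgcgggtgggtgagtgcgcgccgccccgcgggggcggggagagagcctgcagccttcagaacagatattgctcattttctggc
ACTA2, chr10:88991338-88991587, minus strand: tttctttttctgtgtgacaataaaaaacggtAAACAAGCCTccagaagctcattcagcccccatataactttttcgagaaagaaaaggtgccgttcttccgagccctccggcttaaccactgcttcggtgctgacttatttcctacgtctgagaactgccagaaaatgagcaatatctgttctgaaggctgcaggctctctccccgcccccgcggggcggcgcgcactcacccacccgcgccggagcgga
SESN1, chr6:109008989-109009238, minus strand: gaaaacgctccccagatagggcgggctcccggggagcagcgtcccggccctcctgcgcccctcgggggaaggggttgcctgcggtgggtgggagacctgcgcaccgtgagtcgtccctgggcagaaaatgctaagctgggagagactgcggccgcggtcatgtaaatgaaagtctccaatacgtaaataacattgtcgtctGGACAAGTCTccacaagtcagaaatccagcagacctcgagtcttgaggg
On both strands the decamer was found for 3 of the 10 genes of the higher group that have a window in the table, for 5 of 24 measured targets (20.8%) and for 6.80% of all 27305 genes with windows. No window of a measured target held a pair of decamers within 13 bases of each other. A match is a description of letters in these windows, not a binding site, and the windows do not cover introns, where p53 sites are often found.

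**Figure D3:**
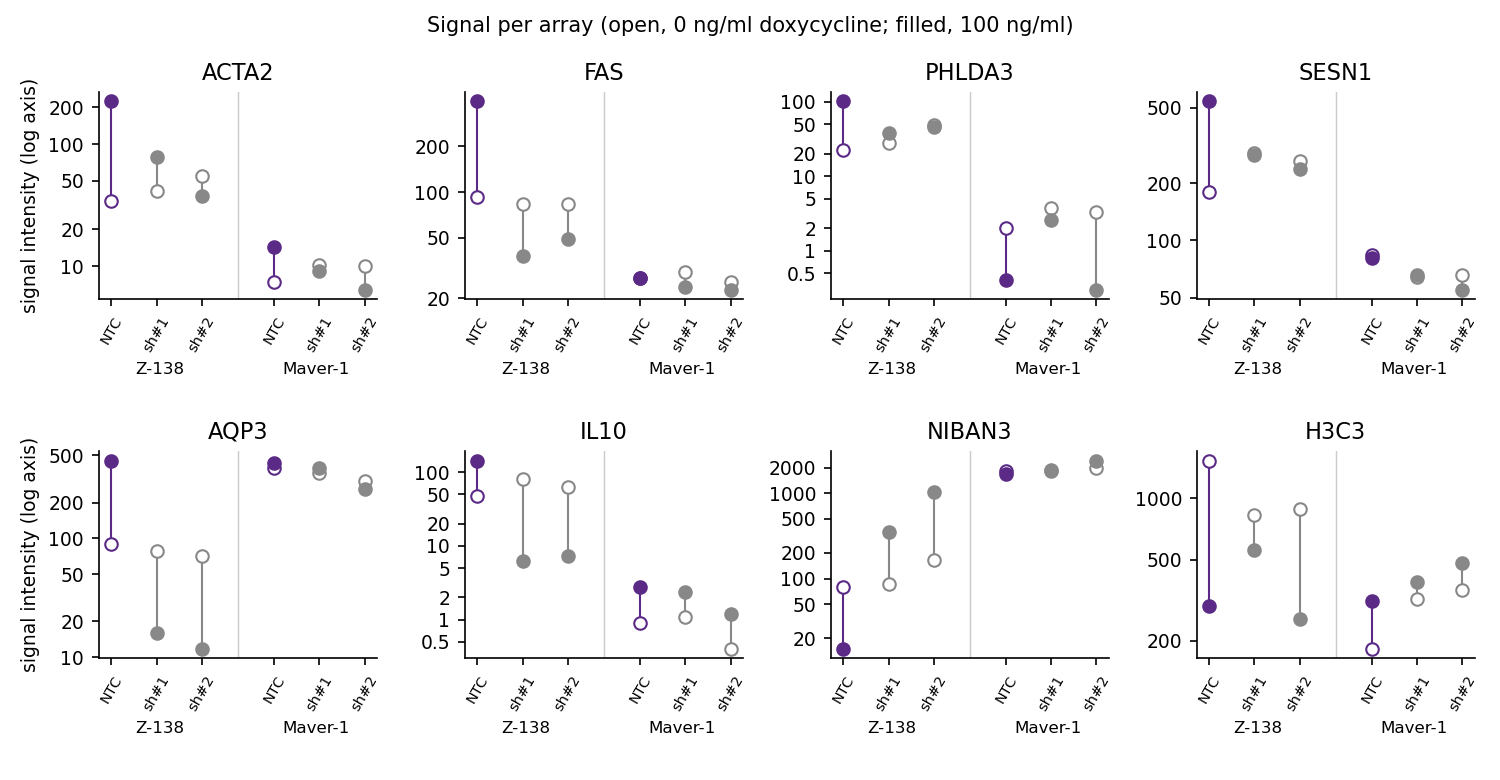
Each panel shows 1 gene (ACTA2, FAS, PHLDA3, SESN1, AQP3, IL10, NIBAN3 and H3C3), with the signal of every array on a log axis and a line joining 0 and 100 ng/ml doxycycline of a culture (NTC purple, NIKsh grey). FAS goes from 92.6 to 395.8 in Z-138 NTC and down in both Z-138 NIKsh cultures, and H3C3 goes from 1528.8 to 294.9 in Z-138 NTC and down in all 3 Z-138 cultures.

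The lowest genes of Z-138 NTC included replication-dependent histone genes, whose transcripts are made in S phase and end in a stem-loop in place of a poly(A) tail. H3C11 (chromosome 6), a histone H3 gene, went from 243.0 to 7.1, and the other Z-138 arrays lay between 8.1 and 49.7, so its untreated NTC array was far above the rest. H3C3 (chromosome 6), another H3 gene, went from 1528.8 to 294.9 in Z-138 NTC and from 830.8 to 559.5 and 887.6 to 255.4 in the NIKsh cultures. H3C3 fell in the limma test over the 3 Z-138 cultures, by 1.57 ± 0.27 (SE, adjusted p = 0.0438). H2AC16 and H2BC11 (both chromosome 6) fell in the same test, by 1.55 ± 0.28 and 1.40 ± 0.26 (adjusted p = 0.0444 for each). In Maver-1 NTC H3C3 went from 182.1 to 312.8 and H2AC16 from 16.7 to 26.9. Over 28 such histone genes, a set drawn up after these values were seen, the median change was -0.37 in Z-138 NTC, with 24 of the 28 genes lower and 12 at least 1.5-fold lower, where 10.7% of all genes were that much lower and 55.7% had a positive change. A separate list of replication-dependent and variant histones, with 16 genes measured, had a median of -0.10 in Z-138 NTC, with 3 at least 1.5-fold lower and 2 higher. The median of the 28 genes was -0.01 with NIKsh#1 and -0.71 with NIKsh#2 in Z-138, and 0.29 in Maver-1 NTC. That of the separate list was 0.03, -0.30 and 0.17 in these cultures. The GAPDH ratio went from 1.30 to 1.36 in Z-138 NIKsh#1 and from 1.15 to 1.83 with NIKsh#2. The ACTB ratio went from 2.86 to 4.62 and from 2.92 to 5.09 in these cultures. The part of RNA integrity in the histone values was not tested. H2AX (chromosome 11), the variant phosphorylated at DNA breaks, went the other way, from 411.6 to 1036.2 in Z-138 NTC.

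The promoters of H3C3, H2AC16 and H2BC11 are shown 5′ to 3′ because these genes passed the Z-138 test in the same direction. Capitals mark CCAAT on either strand, an element known from histone promoters.
H3C3, chr6:26045134-26045383, plus strand: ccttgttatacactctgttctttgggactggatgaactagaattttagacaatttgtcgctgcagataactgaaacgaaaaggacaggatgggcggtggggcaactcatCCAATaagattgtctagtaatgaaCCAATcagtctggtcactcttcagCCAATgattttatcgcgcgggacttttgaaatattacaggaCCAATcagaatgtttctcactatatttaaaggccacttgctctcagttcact
H2AC16, chr6:27865067-27865316, plus strand: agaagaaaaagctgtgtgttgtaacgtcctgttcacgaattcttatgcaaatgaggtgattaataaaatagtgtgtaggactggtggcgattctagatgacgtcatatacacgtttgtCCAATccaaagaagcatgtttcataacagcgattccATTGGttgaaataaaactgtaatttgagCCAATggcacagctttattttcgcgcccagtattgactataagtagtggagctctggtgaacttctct
H2BC11, chr6:27132796-27133045, minus strand: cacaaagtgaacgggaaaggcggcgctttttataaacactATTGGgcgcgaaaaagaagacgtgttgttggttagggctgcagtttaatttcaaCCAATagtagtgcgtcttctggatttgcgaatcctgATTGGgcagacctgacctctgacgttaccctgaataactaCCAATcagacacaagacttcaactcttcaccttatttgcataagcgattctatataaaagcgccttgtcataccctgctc
CCAAT on either strand was present for 24 of the 27 histone genes with a window (88.9%) and for 37.0% of all 27305 genes.

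Other genes low in Z-138 NTC belonged to the B cell. In a bulk culture, fewer cells that express a gene and less of its RNA per cell cannot be told apart. CD52 (chromosome 1), a lymphocyte surface glycoprotein, went from 317.5 to 61.3, and from 211.7 to 295.5 and 271.3 to 96.3 in the NIKsh cultures. CD37 (chromosome 19), a B cell tetraspanin, went from 66.3 to 15.6 and was lower in both NIKsh cultures too. Of 39 measured genes of B cell identity and receptor signalling, 7 were at least 1.5-fold lower and 2 higher in Z-138 NTC, against 10.7% and 13.9% of all genes, with a median of -0.24. With the NIKsh hairpins in Z-138 the list's medians were 0.16 and 0.29, and in Maver-1 NTC the median was -0.03. PAX5 (chromosome 9), the factor that maintains B cell identity, went from 559.3 to 308.8 in Z-138 NTC and from 546.2 to 1201.3 and 835.2 to 982.0 in the NIKsh cultures. CD79B (chromosome 17), a chain of the B cell receptor, went from 765.6 to 475.2 in Z-138 NTC and from 791.9 to 901.1 in Maver-1 NTC. Both were named after their values were seen, and neither passed a limma test here.

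A further comparison, added after the values were seen, asked where the change of Z-138 NTC differed from that of the 2 Z-138 NIKsh cultures. In limma 68 genes (0.589%) passed, 30 with a higher and 38 with a lower change in NTC, and for 59 of them the NTC change was opposite in sign to both NIKsh changes. This is 1 NTC pair against 2 NIKsh pairs, and the spread comes only from the difference between the 2 NIKsh hairpins within each line. No spread between NTC cultures enters these p-values. Choosing genes by this difference also favours opposite signs. AQP3 (chromosome 9), a water and glycerol channel, went from 90.1 to 450.8 in NTC and from 78.9 to 15.9 and 70.6 to 11.7 with the NIKsh hairpins, a difference of 4.50 ± 0.36 (SE, adjusted p = 0.00217). The untreated arrays of AQP3 were alike and the treated arrays parted in opposite directions, and its 3 probe sets ranged from 0.42 to 2.29 in NTC. ELL2 (chromosome 5), an elongation factor of antibody-secreting cells, showed the same layout, from 385.3 to 770.6 in NTC and from 388.8 to 66.7 and 359.8 to 47.6. IL10 (chromosome 1), an anti-inflammatory cytokine, went from 48.1 to 143.3 in NTC and from 79.7 to 6.3 and 63.9 to 7.4, a difference of 4.44 ± 0.54 (SE, adjusted p = 0.00979). The other genes with the smallest p on this side were ENPP2 (autotaxin), PLEK, DOCK10 and CABLES1, whose NTC changes were 0.89, 0.45, 0.80 and 0.93. FAS was also among the 68, with a difference of 2.97 ± 0.43 (SE, adjusted p = 0.0218).

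On the lower side NIBAN3 (chromosome 19), a B cell protein, had a change of -2.21 from a signal of 80.1 in NTC and went from 85.6 to 354.5 and 164.4 to 1025.9 with the NIKsh hairpins, a difference of -4.52 ± 0.31 (SE, adjusted p = 0.00157). Its 3 probe sets did not move alike in NTC, from -2.21 to 0.70. AFF3 (chromosome 2), a lymphoid nuclear protein, went from 29.7 to 12.2 in NTC and from 38.8 to 348.7 and 43.6 to 435.3. ATP1B1 (chromosome 1), a subunit of the sodium pump, went from 127.3 to 38.2 in NTC and from 98.6 to 332.6 and 79.1 to 324.3. For AFF3 and ATP1B1 the larger steps were those of the NIKsh cultures. CRIP1 (chromosome 14) differed in this, going from 935.1 to 234.8 in NTC against 458.4 to 612.2 and 486.2 to 618.2, with an untreated NTC array above all others of the line. KLHL14 and GPR18 completed the lowest 6. VPREB3 (chromosome 22), a surrogate light chain protein, went from 361.8 to 127.3 in NTC and was higher by 0.46 in both NIKsh cultures, a difference of -1.95 ± 0.22 (SE, adjusted p = 0.00762). In place of 68, 0 genes passed with the ACTB ratio as a covariate, 140 with the GAPDH ratio, and 0 without a trend in the variance. The fits with a covariate, and the following ones with 1 NIKsh culture left out, have only 1 residual degree of freedom. Without Z-138 NIKsh#1 428 genes passed, without Z-138 NIKsh#2 1111, without Maver-1 NIKsh#1 343 and without Maver-1 NIKsh#2 315.

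**Figure D4:**
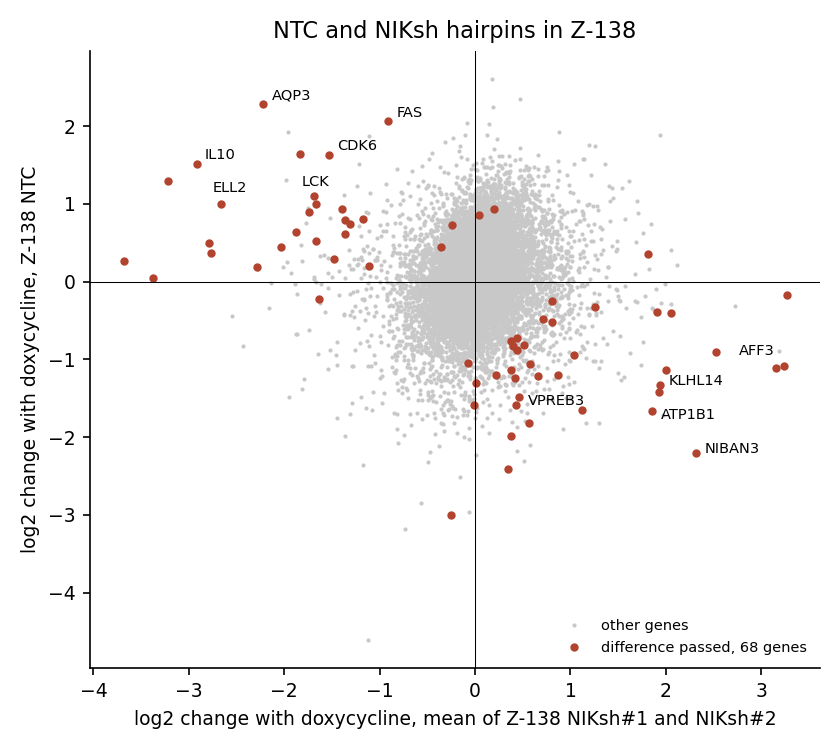
Each point is a gene, with its mean log2 change over the 2 Z-138 NIKsh cultures on the x axis and its change in Z-138 NTC on the y axis. The 68 genes that passed the test of the difference (red) lie mostly at the upper left and the lower right, where the NTC change is opposite to the NIKsh change, as it was for 59 of them.

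A test of the Z-138 NIKsh cultures, which shares no array with NTC, gave 247 genes (2.14%). In Z-138 NTC 112 of these had the same sign and 135 the opposite sign, with 38 and 44 of them at least 1.5-fold apart. Over all 11548 genes 59.0% had the same sign, and 1883 were at least 1.5-fold apart in the same and 962 in the opposite direction. The genes called with the MAP3K14 hairpins thus shared the NIKsh sign in Z-138 NTC less often than all genes did. Their median change in the NIKsh direction was -0.061, against 0.101 over all genes. In Maver-1 NTC 88 had the same sign and 158 the opposite sign, and 5 and 12 were at least 1.5-fold apart. There, 43.0% of all 11548 genes had the same sign, and 212 and 307 were at least 1.5-fold apart.

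The next comparison took the mean change with doxycycline over the 3 Z-138 cultures. All but NTC carry a MAP3K14 hairpin, so doxycycline and knockdown cannot be told apart in this mean. The ACTB ratio rose in each culture, from 2.33 to 6.34 in NTC, 2.86 to 4.62 with NIKsh#1 and 2.92 to 5.09 with NIKsh#2. Beyond the covariate fits given below, the part of this ratio was not tested. The spread in this comparison was pooled over the cultures of both lines, and the Maver-1 changes were narrower. Their SDs were 0.264, 0.301 and 0.351, against 0.541, 0.460 and 0.513 in Z-138. The SEs and p-values are therefore set in part by Maver-1. Over the 3 Z-138 cultures 145 genes (1.26%) passed in limma, 83 rose and 62 fell, and all had the same sign in the 3 cultures. In Z-138 NTC alone 91 of them were at least 1.5-fold apart. Since the genes were chosen by their change over these same cultures, such agreement in sign and size is favoured. In Maver-1 NTC 38 of the 145 genes had the same sign and 107 the opposite sign, and 4 were at least 1.5-fold apart in the same direction. Over all genes, 41.0% had the same sign in Maver-1 NTC as over the Z-138 cultures. MTSS1 (chromosome 8), a protein that bends membranes at actin-rich edges, rose by 1.34 ± 0.18 (SE), from 100.5 to 238.8 in NTC. ARHGAP25 (chromosome 2), a GTPase-activating protein for Rac, rose by 1.26 ± 0.18, from 63.7 to 169.3 in NTC. RGS1 (chromosome 1), which dampens chemokine receptor signals, rose by 1.38 ± 0.20, with a smaller step in NTC (407.1 to 628.5) than with the hairpins (481.6 to 1791.5 and 519.1 to 1618.9). TAPT1, AFTPH-DT and GADD45A completed the higher 6.

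Among the genes that fell, JAK3 (chromosome 19), the kinase of the common gamma chain receptors, fell by 1.61 ± 0.22 (SE), from 555.2 to 232.2 in NTC and to 117.6 and 131.5 in the NIKsh cultures. MZB1 (chromosome 5), a chaperone for antibody secretion, fell by 1.07 ± 0.13, from 1000.8 to 579.3 in NTC. DAPP1 (chromosome 4), an adaptor of the B cell receptor, fell by 1.22 ± 0.17, from 246.1 to 113.9 in NTC. S100A4, C16orf54 and CDCA7L completed the lower 6, and the adjusted p of all 12 was 0.0413. The deaminase genes APOBEC3B and APOBEC3C (both chromosome 22) fell by 0.99 ± 0.18 (adjusted p = 0.0444) and 1.22 ± 0.22 (adjusted p = 0.0438). APOBEC3B changed by -1.43 in NTC and by -0.58 and -0.955 in the NIKsh cultures. APOBEC3C changed by -0.77 in NTC and by -1.44 and -1.46 in the NIKsh cultures. The 145 calls were 0 with the ACTB or the GAPDH ratio as a covariate and 0 without a variance trend. They were 503 without Z-138 NTC, 1034 without Z-138 NIKsh#1, and 0 without Z-138 NIKsh#2 or without any 1 of the 3 Maver-1 cultures.

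In Maver-1 NTC the largest changes belonged to weak genes: 28 of the 43 genes at least 2-fold higher and 23 of the 32 lower had a mean NTC signal under 30. IGLL5 (chromosome 22), which lies in the lambda light chain locus, went from 8.7 to 85.8. The untreated Maver-1 NIKsh arrays of IGLL5 lay at 91.2 and 63.7, so the untreated NTC array was the low one, and one treated NIKsh array was lower still at 1.2. CD80 (chromosome 3), a costimulatory ligand for T cells, went from 1.3 to 13.3, and LAT (chromosome 16), an adaptor of the T cell receptor, from 3.7 to 19.9, and the probe sets of each gene disagreed in sign. At the low end, the phosphatase gene ALPI (chromosome 2) went from 27.3 to 3.3 and COX17 (chromosome 3), the copper chaperone of cytochrome c oxidase, from 26.6 to 7.5. S1PR2 (chromosome 19), a sphingosine phosphate receptor that holds B cells in germinal centres, was better expressed and went from 104.8 to 232.4 in Maver-1 NTC and from 350.2 to 231.2 in Z-138 NTC. The limma test over the 3 Maver-1 cultures called 0 genes (0%), with 247 at an unadjusted p under 0.05. The test of Maver-1 NTC against its NIKsh cultures also called 0 (0%), with 171.

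The lists for the known targets of doxycycline came next. Of 76 measured genes of the mitochondrial ribosome, 5 were at least 1.5-fold higher and 5 lower in Z-138 NTC (median -0.04), and none in the Maver-1 culture (median 0.04). Over all genes 13.9% were that much higher and 10.7% lower in Z-138 NTC. MRPS18A (chromosome 6), a protein of the small subunit, fell in the test over the Z-138 cultures, by 0.84 ± 0.13 (SE, adjusted p = 0.0413), and went from 334.1 to 401.7 in Maver-1 NTC. The 25 genes of mitochondrial translation and tRNA charging had medians of 0.30 and -0.03. Among them LARS2, the mitochondrial leucyl-tRNA synthetase, went from 191.9 to 367.1 in Z-138 NTC and from 145.1 to 142.5 in Maver-1 NTC. The 17 mitochondrial chaperones and proteases had medians of 0.40 and -0.05. LONP1, the matrix protease, went from 292.0 to 528.3 in Z-138 NTC and from 266.0 to 231.2 in Maver-1 NTC. Genes of complex I had medians of -0.03 and 0.01 and those of complexes II to V 0.12 and -0.04. ATF4 targets had medians of 0.17 and -0.01, with 3 of 36 at least 1.5-fold higher and 1 lower in Z-138 NTC. PPP1R15A, which restores translation after stress, went from 29.2 to 48.1 in Z-138 NTC and from 28.2 to 36.6 in Maver-1 NTC, and CTH, an enzyme of cysteine synthesis, from 138.4 to 82.5 and from 55.6 to 61.7. None of these mitochondrial or ATF4 lists was shifted in one direction in both NTC cultures by 0.1 or more from the median of all genes, 0.07 for the Z-138 and -0.02 for the Maver-1 culture.

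Lists for the hairpin itself followed. The 22 measured genes of the RNA interference machinery had a median of 0.21 in Z-138 NTC, with 3 at least 1.5-fold higher, close to the 13.9% of all genes, and -0.05 in Maver-1 NTC. XPO5, which exports hairpin precursors from the nucleus, went from 414.7 to 774.1 in Z-138 NTC and from 598.9 to 558.6 in Maver-1 NTC. DROSHA, the nuclear nuclease that trims them, went from 834.1 to 1120.7 and from 1024.8 to 934.9. The 17 genes of double-stranded RNA sensing had medians of 0.30 and -0.03, and OAS1, a sensor that interferon induces, went from 10.7 to 17.3 and from 66.8 to 45.2. The 35 interferon response genes had medians of 0.00 and 0.02. SAMD9L, an interferon-induced antiviral gene, went from 109.9 to 299.0 in Z-138 NTC, and IFITM1, a membrane protein that blocks viral entry, from 286.2 to 119.2.

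Growth genes followed. Of 42 MYC targets and ribosome biogenesis genes 37 had a positive change in Z-138 NTC, 10 of them at least 1.5-fold, with a median of 0.22, and in Maver-1 NTC 17 were positive (median -0.04). Of all genes 55.7% were positive and 13.9% at least 1.5-fold higher in Z-138 NTC, and 46.0% were positive in Maver-1 NTC. POLR1A, the large subunit of RNA polymerase I, went from 203.7 to 614.7 in Z-138 NTC and from 487.4 to 419.4 in Maver-1 NTC. The list's median was -0.02 in each Z-138 NIKsh culture. Glycolysis and hypoxia genes had medians of 0.21 and -0.03, and PFKP, the platelet-type phosphofructokinase, went from 644.5 to 1487.9 in Z-138 NTC and from 369.6 to 340.3 in Maver-1 NTC. S phase genes had medians of 0.15 and -0.09, and those of G2/M 0.06 and -0.05.

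For the pathway the other hairpins aim at, MAP3K14 itself (chromosome 17) went from 46.4 to 55.4 in Z-138 NTC and from 77.2 to 132.7 in Maver-1 NTC. The treated Maver-1 NTC array was the highest of all 12 for MAP3K14. The 10 measured genes of the alternative NF-kB pathway had medians of 0.35 and 0.12 in the NTC cultures, and -0.24 and -0.29 in the Z-138 NIKsh cultures. NFKB2, the precursor of p52 (chromosome 10), went from 114.4 to 239.0 in Z-138 NTC and from 196.6 to 223.8 in Maver-1 NTC, with its 3 probe sets between -1.08 and 1.04 in Z-138 NTC. TRAF3 (chromosome 14), the adaptor that marks NIK for degradation, went from 321.1 to 528.0 in Z-138 NTC, and its signals in Maver-1, the line with the deletion, were 4.3 or less on all 6 arrays. Of 45 NF-kB target genes 9 were at least 1.5-fold higher and 5 lower in Z-138 NTC, and 5 and 1 in Maver-1 NTC. Over all genes, 13.9% were that much higher and 10.7% lower in Z-138 NTC, and 2.54% higher and 1.96% lower in Maver-1 NTC. In the Z-138 NIKsh cultures 2 were higher and 20 lower with NIKsh#1, and 1 higher and 14 lower with NIKsh#2. There, 6.83% of all genes were that much higher and 7.69% lower with NIKsh#1, and 12.8% and 7.09% with NIKsh#2. In the Maver-1 NIKsh cultures 1 was higher and 8 lower with NIKsh#1, and 1 higher and 10 lower with NIKsh#2. The shares of all genes were 2.71% higher and 2.75% lower with NIKsh#1, and 4.16% and 5.36% with NIKsh#2. MHC class II genes had medians of 0.08 and 0.10 in the NTC cultures and -0.64 and -0.24 in the Z-138 NIKsh cultures. CD40 (chromosome 20), a receptor upstream of NIK, was lower in every Z-138 culture, from 102.9 to 63.6 in NTC, and fell in the test over the 3, by 1.47 ± 0.27 (SE, adjusted p = 0.0444).

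**Figure D5:**
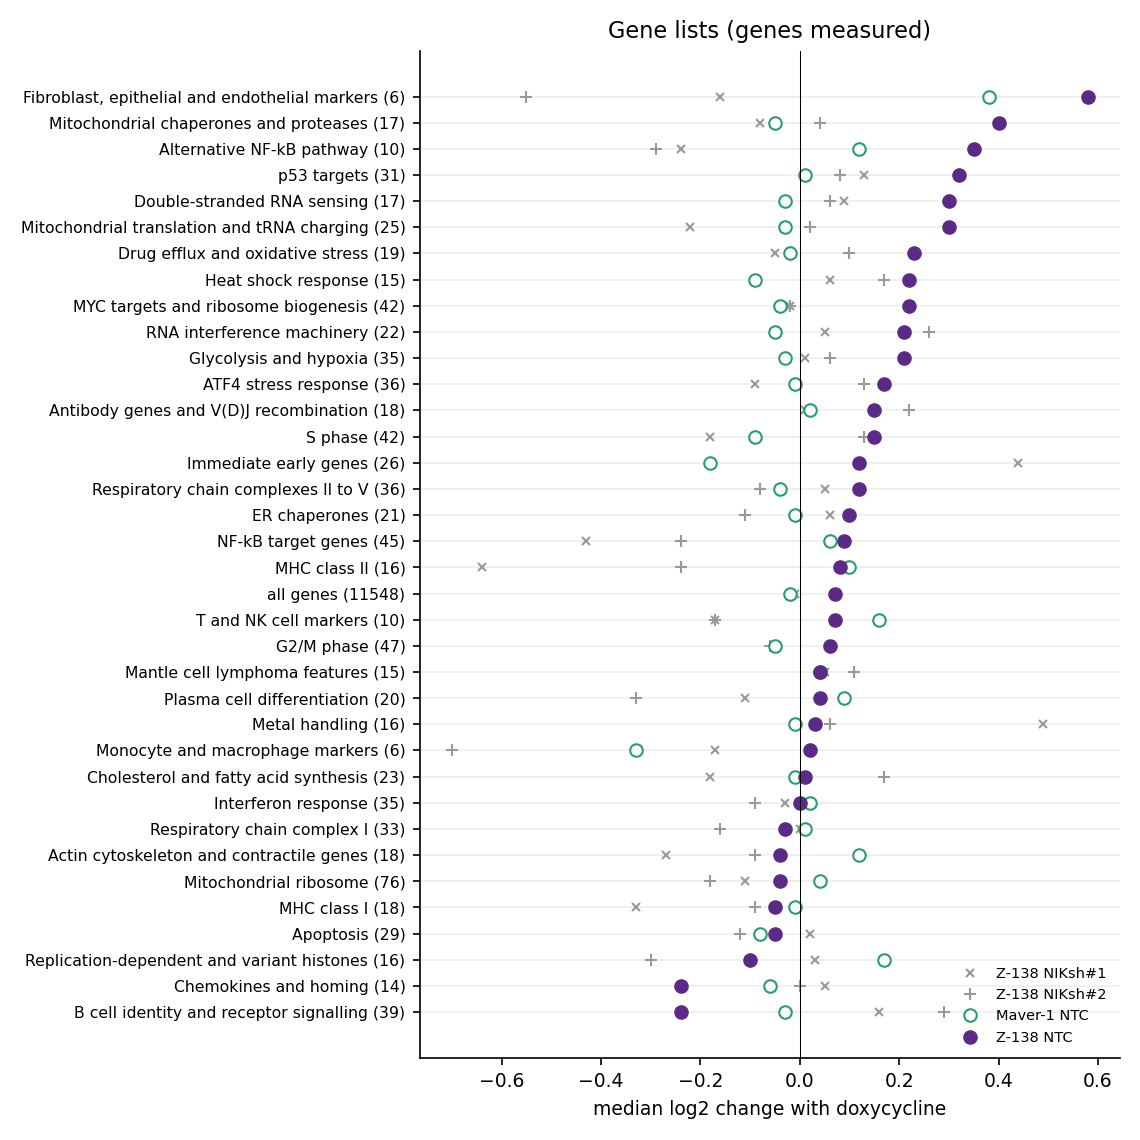
Median log2 change with doxycycline of each gene list with at least 5 measured members, in Z-138 NTC (filled purple), Maver-1 NTC (open green), Z-138 NIKsh#1 (x) and Z-138 NIKsh#2 (+). In Z-138 NTC the medians of the mitochondrial chaperones (0.40), p53 targets (0.32) and alternative NF-kB pathway (0.35) lie to the right of the all-gene median of 0.07, and the Maver-1 NTC medians mostly lie near 0.

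Of all lists, 2 had a median at least 0.1 from that of all genes in the same direction in both NTC cultures. One was the alternative NF-kB pathway, by 0.283 and 0.137. Quantile normalization took this list out of the count. The other was the list of fibroblast, epithelial and endothelial markers, by 0.518 and 0.394 over the 6 of 20 markers above the filter, of which PECAM1, which lymphocytes also express, had the highest signal, and averaged probe sets took this list out. With no filter on low signal, or with the stricter one, neither list was shifted so in both. The summed signal of this list went from 455.7 to 718.9 in Z-138 NTC and from 1155.5 to 1283.2 in Maver-1 NTC, and 14 of its markers were under the filter on every array. The sums of T and NK cell markers went from 757.5 to 916.8 and from 1817.4 to 1880.5, and those of monocyte and macrophage markers from 292.7 to 258.2 and from 464.3 to 375.4. Their part in the results was not tested.

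Tests over both lines called few genes or none. Doxycycline over all 6 cultures called 0 (0%), with 617 genes at an unadjusted p under 0.05, and over the 4 NIKsh cultures 5 (0.0433%). The difference between NIKsh and NTC cultures over both lines called 0 (0%), with 627. The difference between the 2 NTC cultures called 0 (0%), with 1629. That last test has little power. In simulated data with the same spread in every culture it recovered 8.5% of genes that differed 2-fold and 60.5% of those that differed 4-fold. With 1 NIKsh culture left out, the test has 1 residual degree of freedom, from the 2 hairpins of a single line. Its counts in such fits are therefore no measure of how many genes differ. It called 653 genes without Z-138 NIKsh#1, 636 without Z-138 NIKsh#2, 239 without Maver-1 NIKsh#1 and 231 without Maver-1 NIKsh#2.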

How the data were processed

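Total RNA of 12 cultures was amplified with the NuGEN Ovation kit, per the labels' protocols, and read on Affymetrix U133 Plus 2 arrays. The authors deposited linear MAS5 signal intensity, per the submitters' processing notes, and its 2% trimmed mean was equal on all arrays. Array number limits the precision, and detection calls were not used here. Of 54675 probe sets, 41097 carry 1 gene symbol, 1801 several and 11777 none, and those with 1 symbol were used. The probe set with the highest mean signal stood for a gene, and genes with a mean signal of at least 12.55 were kept, 11548 of 19775.

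Values were log2(signal + 3). limma 3.58.1 (R 4.3.3) was fitted to all 12 arrays with a variance trend, Benjamini-Hochberg adjustment and culture as a block, since the labels describe each culture as split with and without doxycycline. The fit was tested on simulated data. Tables were made with pandas 2.3.3. Members and gene lists were chosen with earlier results of these data known. Named genes were the 12 highest and 12 lowest by mean change among those at least 1.5-fold apart in both NTC cultures, the 10 highest and lowest in Z-138 NTC, the 8 in Maver-1 NTC, the 6 smallest p-values per direction in the 2 tests with NTC arrays that called genes (not in tests of NIKsh arrays alone), and up to 4 members per list. Promoter windows are from RefSeq (GRCh38.p14). Other settings are in the closing section.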

Additional observations from a re-analysis of the deposited data

Results flagged for a closer look

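The doxycycline change of Z-138 NTC differed from that of the 2 Z-138 NIKsh cultures in 68 genes by the test of the difference itself (limma, adjusted p under 0.05), 30 with a higher and 38 with a lower change in NTC. The comparison was added after the values were seen. Of the 68 genes 46 also passed the test of the NIKsh cultures alone, which 2.14% of all genes passed. In Z-138 NTC 30 were at least 2-fold apart, against 6.99% of all genes. The 68 genes were chosen by a difference between these same NTC and NIKsh arrays, which favours both counts.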

How the results depend on the processing

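The test over both NTC cultures called 0 genes under every setting run except on the 4 NTC arrays alone with line as replicate block, where 3 passed (ACTA2 higher, CRIP1 and H3C11 lower) with 1 residual degree of freedom. Of the named genes in that test, 428 of the values under other settings kept their direction and stayed uncalled. These genes were chosen by a change in the same direction in both NTC cultures, and almost no setting called any gene. Such agreement was therefore favoured in advance and is no measure of robustness. ACTA2 passed on the NTC arrays alone, and CACNA1A turned to 0.12 with averaged probe sets. The test over the Z-138 cultures gave 145 genes, and 0 with no filter on low signal, with the ACTB or the GAPDH ratio as a covariate or with no variance trend. It gave 15 with averaged probe sets, 62 with quantile normalization, 461 with array weights and 0 to 1034 with 1 culture left out. The difference of Z-138 NTC from NIKsh gave 68, and 44 with no filter, 15 with averaged probe sets, 223 with no replicate block, 280 with culture as a random block, 0 with the ACTB ratio, 140 with the GAPDH ratio, 0 with no variance trend and 68 to 1111 with 1 culture left out. The same test in Maver-1 gave 0 to 6 with 1 culture left out. The difference between the NTC cultures gave 1 with no replicate block, 1 with a random block and 231 to 653 with 1 NIKsh culture left out. With 1 NIKsh culture left out, these tests of a difference have 1 residual degree of freedom, from the 2 hairpins of a single line. The counts by size moved with the treatment of weak genes. The 84 genes shared by both NTC cultures became 11 with a pseudocount of 16, 471 with no filter, 11 with a filter at the 75th percentile and 49 with averaged probe sets. The 807 genes of Z-138 NTC became 430, 1641 and 345 under the first 3 of these. The 75 genes of Maver-1 NTC became 9, 730, 3 and 47, and 145 with a pseudocount of 1. The 2 lists shifted in both NTC cultures became 1 with no filter, which was another list (cytosine deaminases), and 0 with the filter at the 75th percentile. With averaged probe sets and with quantile normalization the count was 2 again, but 1 of the 2 lists was replaced each time. Where a value moved, the cause was not tested. A single array per culture and dose, and weak signal in most genes shared by both NTC cultures, limit these results.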
